A study of Mus musculus with 3 samples.

Results

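Immediate early genes are switched on within minutes of a signal, before any new protein is made, and their messenger RNAs are short-lived. The set described here holds 10 of the 37224 gene IDs in the count files and was chosen by gene symbol. It comprises the orphan nuclear receptors Nr4a1, Nr4a2 and Nr4a3, the AP-1 subunits Fos, Fosb, Jun and Junb, and the zinc finger factors Egr1, Egr2 and Egr3. In lymphocytes these genes are known for their response to receptor signals that run through calcium and MAP kinases. NR4A and EGR proteins are also known to restrain T cell activation, and tissue dissociation is a known inducer of many of them.

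The study sequenced RNA from 3 kinds of immune cell sorted out of the intestinal epithelium, all from mice that lack Rag2 and so cannot assemble T or B cell antigen receptors. The iCD8a library holds CD45+CD8α+ cells, the ILC1 library holds group 1 innate lymphoid cells gated on NKp46 and NK1.1, and the CD11b+ library holds myeloid cells that carried CD45 and CD11b but not CD8α. The labels give the genotype as RAG-2 null for every library and give no age, treatment or number of pooled mice. With 1 library per population there was no replicate check and no test, and every difference below is a difference between libraries.

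Gene counts totalled 21678113 in the iCD8a library, with 22181660 in ILC1 and 30511296 in CD11b+. Levels are CPM, counts scaled to a common library size adjusted by TMM, a method that aligns the bulk of genes between libraries. Ranges in brackets are 95% exact intervals that cover counting error only. A call of higher or lower needed a fold of 4 or more, with the interval bound nearest to 1 at 2 or beyond, and 5 CPM or more in whichever library was higher. Rag2 had 0 counts in all 3 libraries. The T cell marker list, which includes Cd8a and the CD3 chains, summed to 5534 CPM in iCD8a, with 68.2 in ILC1 and 240.4 in CD11b+. The natural killer and ILC1 list summed to 338 CPM in iCD8a, as compared with 2704 in ILC1 and 48.3 in CD11b+, and the macrophage and monocyte list to 393, 565 and 8494 CPM in the same libraries. All 6 genes of the natural killer list had counts in every library.

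Of the 10 genes, 4 were called lower in iCD8a than in ILC1 and 0 higher, where 4.89% of the 10110 genes with 5 CPM or more in either library were called lower and 3.52% higher. The 4 were Nr4a1, Nr4a3, Fosb and Egr2. Against CD11b+, 6 were called lower in iCD8a and 0 higher, beside 13.4% and 6.13% of 10821 genes. These were Nr4a1, Nr4a3, Fosb, Egr1, Egr2 and Egr3. Both comparisons use the same iCD8a library, so they are not independent of each other. Between ILC1 and CD11b+, Egr3 alone was called lower in ILC1 and 0 genes higher, beside 13% and 6.01% of 10734 genes. A looser rule took a fold of 2 with the interval bound nearest to 1 only above 1. It gave 8 members lower in iCD8a than in ILC1 and 0 higher, beside 10.8% and 9.53% of genes. Against CD11b+ it gave 7 lower in iCD8a and 0 higher, beside 20.6% and 16.7%. Between ILC1 and CD11b+ it gave 2 lower and 3 higher, beside 21% and 17%. A stricter rule took a fold of 8 with that bound at 4 or beyond. It gave 3 lower in iCD8a than in ILC1, beside 3.02% lower and 2% higher of all genes. The stricter rule also gave 3 lower in iCD8a than in CD11b+, beside 9.5% and 2.52%, and 0 between ILC1 and CD11b+, beside 8.79% and 2.77%. In bulk RNA, fewer cells that express a gene and less of its RNA per cell cannot be told apart.

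The median log2 ratio over the 10 genes was −1.73 in iCD8a over ILC1, beside 0.06 over all genes compared, and the members ran between −4.03 and −0.90. For iCD8a over CD11b+ the median was −2.47, beside 0.08 over all genes, with members between −4.52 and −0.04. For ILC1 over CD11b+ it was 0.08, beside 0.03, with members between −2.69 and 1.17. The iCD8a library therefore stood lowest of the 3 for each of the 10 genes. One of these 10 orders depends on the scaling: Junb in iCD8a lies above CD11b+ when TMM factors are left out.

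**Figure D1:**
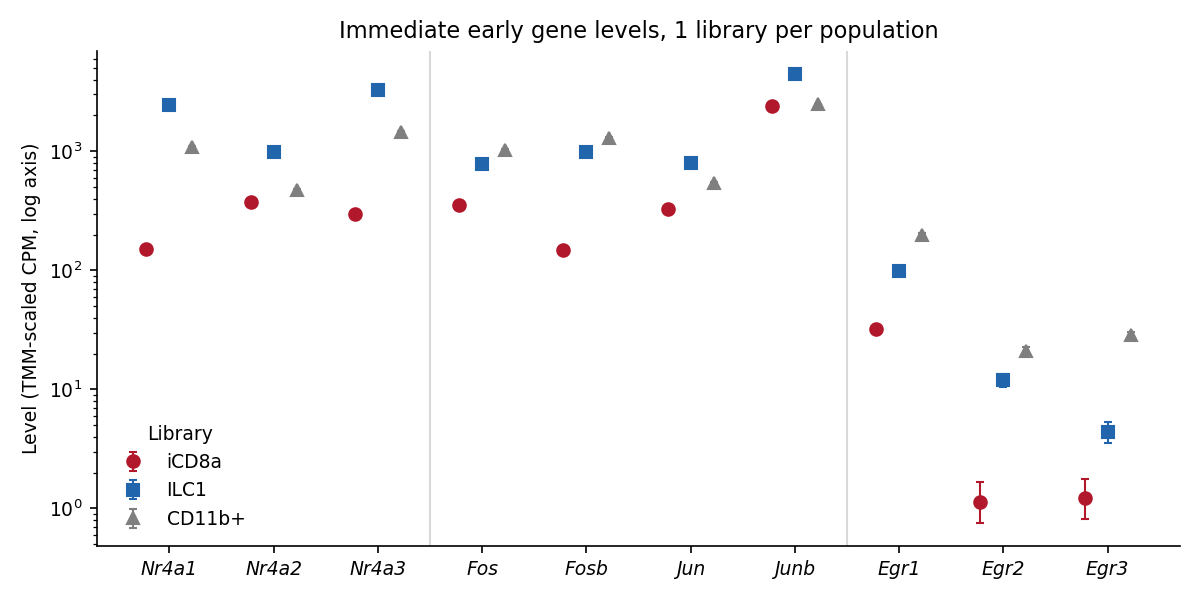
Level of each gene in TMM-scaled CPM (log axis) in the iCD8a, ILC1 and CD11b+ libraries, 1 point per library, with bars for the 95% exact Poisson interval of the count. The iCD8a point is the lowest for each gene (for Junb against CD11b+ only with TMM factors), by 1.03-fold for Junb and by 23.3-fold for Egr3 against CD11b+.

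The NR4A genes encode nuclear receptors that act without a known classical ligand, so the amount of transcript is a main control of their activity. All 3 were most abundant in ILC1 and least abundant in iCD8a. Nr4a1 (ENSMUSG00000023034), which encodes Nur77, a reporter of antigen receptor signal strength in T cells, had 3552 counts in iCD8a, beside 54028 in ILC1 and 30688 in CD11b+. This gave 150.3 CPM in iCD8a, beside 2455 in ILC1 and 1088 in CD11b+. The iCD8a library stood 16.3-fold below ILC1 (15.8 to 16.9) and 7.24-fold below CD11b+ (6.99 to 7.5). Nr4a1 showed the largest difference of the 10 genes between iCD8a and ILC1.

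Nr4a3 (ENSMUSG00000028341), which encodes NOR-1, had 6972 counts in iCD8a, beside 72310 in ILC1 and 41252 in CD11b+. Its levels were 295 CPM in iCD8a, with 3286 in ILC1 and 1462 in CD11b+. It followed the same order as Nr4a1, 11.1-fold lower in iCD8a than in ILC1 (10.9 to 11.4) and 4.96-fold lower than in CD11b+ (4.83 to 5.08). Nr4a2 (ENSMUSG00000026826), which encodes Nurr1, had 8811 counts in iCD8a, beside 21708 in ILC1 and 13352 in CD11b+, that is 373, 986 and 473 CPM in these libraries. It was not called in any pair, since iCD8a lay 2.65-fold below ILC1 (2.58 to 2.71) and 1.27-fold below CD11b+ (1.24 to 1.3). The ratio of ILC1 to CD11b+ lay between 2.08 and 2.26 for the 3 genes, 2.26 for Nr4a1 (2.23 to 2.29), 2.08 for Nr4a2 (2.04 to 2.13) and 2.25 for Nr4a3 (2.22 to 2.27).

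The make-up of the family differed in the iCD8a library. Levels were divided by exon length in kilobases to compare genes with one another. Nr4a2 made up 49.9% of the summed NR4A level per kilobase in iCD8a, 16.3% in ILC1 and 17.4% in CD11b+. Nr4a1 made up 23.3% in iCD8a, beside 46.9% in ILC1 and 46.2% in CD11b+, and Nr4a3 26.8%, beside 36.8% and 36.4%. Nr4a2 was thus the most abundant NR4A gene per kilobase in iCD8a, and Nr4a1 in both other libraries. The ILC1 and CD11b+ libraries thus had close to the same NR4A proportions at different totals. The summed level was 818 CPM in iCD8a, as compared with 6727 in ILC1 and 3023 in CD11b+, which put iCD8a 8.22-fold below ILC1 (8.1 to 8.35) and 3.7-fold below CD11b+ (3.64 to 3.75).

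**Figure D2:**
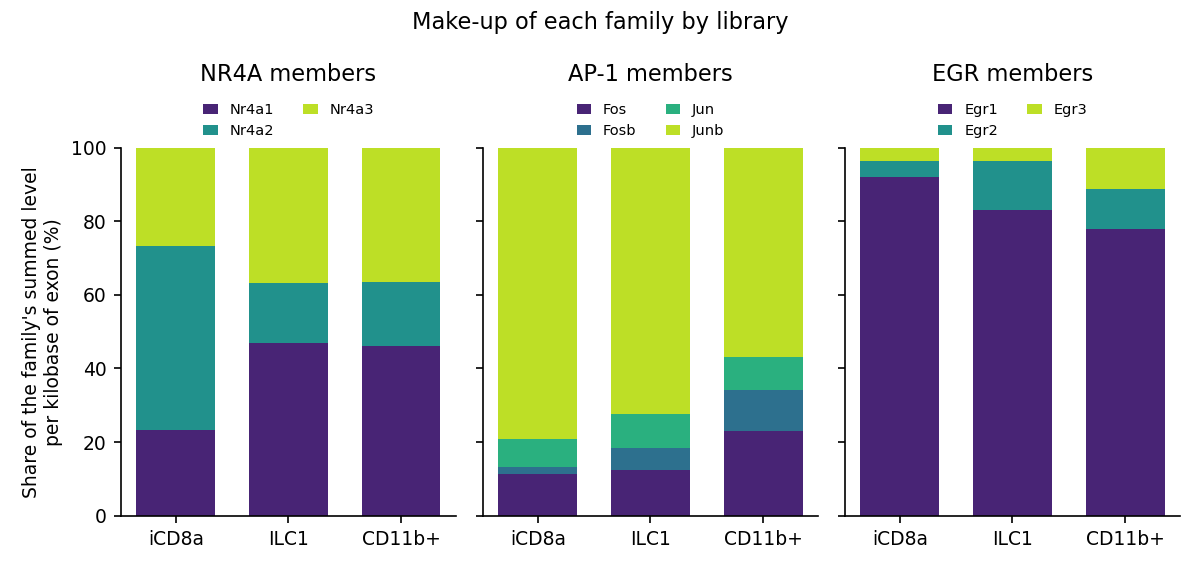
Share of each gene in its family's summed level per kilobase of exon (%), one stacked bar per library, for the NR4A, AP-1 and EGR genes. Nr4a2 takes 49.9% of the iCD8a bar for NR4A, beside 16.3% in ILC1 and 17.4% in CD11b+, and Junb takes the largest part of each AP-1 bar.

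The promoter sequences of the NR4A genes are shown because all 3 genes stood in one order over the libraries, beside Fosb, which was also called, and Fos and Junb, which were not. Jun and Junb stood in the same order as the NR4A genes (Junb only with TMM factors). Jun and Egr2, of which Egr2 was called, are not printed. They are reference sequences from RefSeq on GRCm38.p6, and the count files do not name their build. Capitals mark half-sites of the cyclic AMP response element, bound by the signal-activated factor CREB (TGACG on either strand, not within TGACGTCA), and matches to the EGR element (GCGTGGGCG or GCGGGGGCG on either strand). Bases that GENCODE annotates as exon were left out.
Nr4a1: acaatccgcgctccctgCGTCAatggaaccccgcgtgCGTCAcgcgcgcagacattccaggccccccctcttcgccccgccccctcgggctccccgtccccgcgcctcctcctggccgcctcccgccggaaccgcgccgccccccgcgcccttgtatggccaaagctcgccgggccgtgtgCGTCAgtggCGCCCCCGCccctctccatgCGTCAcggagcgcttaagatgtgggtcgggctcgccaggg
Nr4a2: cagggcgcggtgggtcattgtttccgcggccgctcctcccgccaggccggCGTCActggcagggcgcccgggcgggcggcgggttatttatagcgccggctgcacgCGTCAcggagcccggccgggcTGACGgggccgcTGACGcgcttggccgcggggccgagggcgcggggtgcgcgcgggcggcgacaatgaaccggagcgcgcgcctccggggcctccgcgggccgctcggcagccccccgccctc
Nr4a3: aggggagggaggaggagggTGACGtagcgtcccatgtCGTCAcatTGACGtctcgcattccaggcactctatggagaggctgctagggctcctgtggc
Fosb: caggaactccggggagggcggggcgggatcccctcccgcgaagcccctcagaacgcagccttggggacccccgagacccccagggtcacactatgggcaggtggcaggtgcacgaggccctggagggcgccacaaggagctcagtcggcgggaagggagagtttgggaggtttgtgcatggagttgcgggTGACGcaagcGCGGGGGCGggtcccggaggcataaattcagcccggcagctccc
Fos: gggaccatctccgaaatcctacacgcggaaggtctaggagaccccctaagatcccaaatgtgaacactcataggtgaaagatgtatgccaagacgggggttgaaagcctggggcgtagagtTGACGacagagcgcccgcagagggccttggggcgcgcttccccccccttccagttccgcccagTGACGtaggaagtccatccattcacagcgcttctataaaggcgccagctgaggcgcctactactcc
Junb: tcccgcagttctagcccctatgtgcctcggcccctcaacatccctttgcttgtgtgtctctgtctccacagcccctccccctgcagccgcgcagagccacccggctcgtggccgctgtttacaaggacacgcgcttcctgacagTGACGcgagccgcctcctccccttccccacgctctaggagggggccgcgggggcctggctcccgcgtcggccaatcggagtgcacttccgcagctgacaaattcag
The stretches lie at chr15:101266596-101266845 on the plus strand for Nr4a1, chr2:57124004-57124253 on the minus strand for Nr4a2 and chr4:48045055-48045152 on the plus strand for Nr4a3. Those of the AP-1 genes lie at chr7:19310052-19310295 on the minus strand for Fosb, chr12:85473640-85473889 on the plus strand for Fos and chr8:84978749-84978998 on the minus strand for Junb.

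RefSeq windows of the 250 bases before the start were found for 8 of the 10 genes, 12 windows in all, and none for Egr1 and Egr3. Each of the 3 NR4A windows held 4 CREB half-sites, and 1 of those of Nr4a3, 147 bases before the start, lies in the part not printed. Of 32851 windows of the same length over all genes, 16.6% held 1 or more half-sites, 2.42% held 2 or more and 0.0457%, or 15 windows, held 4 or more. The bar of 4 was chosen after the members had been seen. Fos held 2, Fosb and Junb 1 each, and Jun 0. Of the 5 Egr2 windows, the 3 that overlap held 2 each and the others 0. An EGR element was matched in Nr4a1 and Fosb, and in 3.06% of all windows. The serum response element (CArG box), bound by SRF, was matched in 4 of 5 Egr2 windows and in 1.47% of all windows. With GGAA within 20 bases of it, it was matched in the same 4 and in 0.618%. Of those 4 windows 3 overlap and share 1 box, so that the 4 hold 2 distinct positions of it. TATAAA on either strand was matched 33 bases before the Fos start, 164 bases before that of Nr4a2 and in 12.4% of all windows. AP-1 sites (TGACTCA or TGAGTCA), the full TGACGTCA and the NR4A element AAAGGTCA had 0 matches in the 12 windows, and were matched in 4.46%, 1.55% and 1.34% of all windows. A match is a string of letters and was not tested as a binding site.

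**Figure D3:**
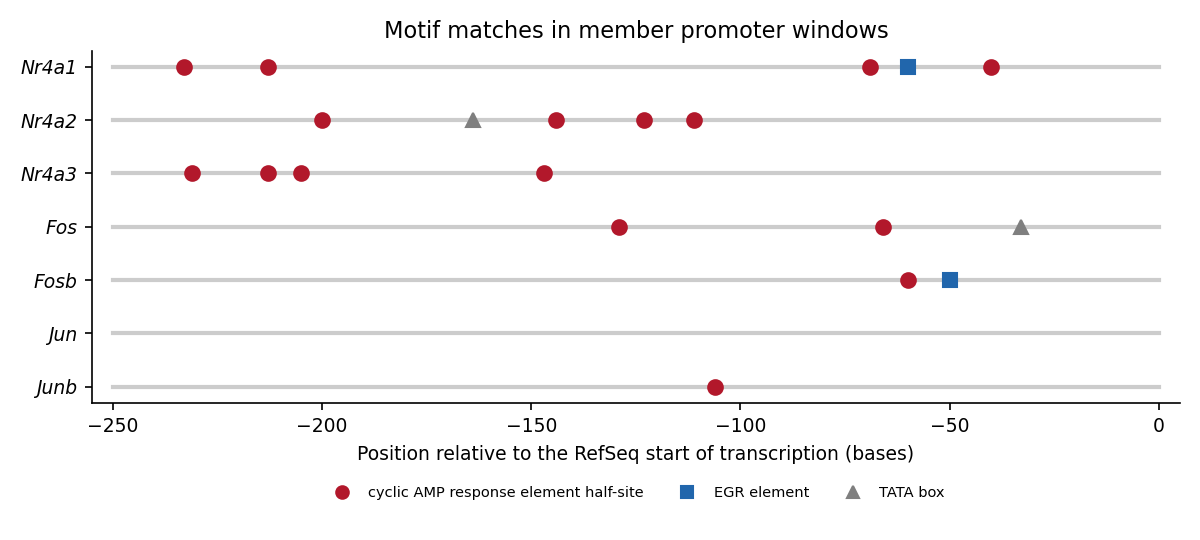
Motif matches in the 250 bases before the RefSeq start of the NR4A and AP-1 genes. The x axis is the position relative to the start, with 1 row per gene and 1 symbol per match. The NR4A windows carry 4 half-sites each, Fos 2, Fosb and Junb 1 each and Jun 0. The Egr2 windows are not drawn.

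AP-1 is a dimer in which a Fos protein must pair with a Jun protein, while Jun proteins can also pair with each other. The Fos-type members, Fos and Fosb, were ordered differently over the libraries from the Jun-type members, Jun and Junb. Fos (ENSMUSG00000021250) had 8399 counts in iCD8a, beside 17296 in ILC1 and 28916 in CD11b+, that is 355 CPM in iCD8a, beside 786 in ILC1 and 1025 in CD11b+. Fosb (ENSMUSG00000003545) had 3483, 21800 and 36659 counts in the same libraries, or 147, 991 and 1299 CPM. Both had their highest level in CD11b+. Fosb was 6.72-fold lower in iCD8a than in ILC1 (6.48 to 6.97) and 8.82-fold lower than in CD11b+ (8.51 to 9.13). Fos was 2.21-fold lower in iCD8a than in ILC1 (2.15 to 2.27) and 2.88-fold lower than in CD11b+ (2.81 to 2.96), and was called in neither pair. The ratio of ILC1 to CD11b+ was 0.767 for Fos (0.752 to 0.781) and 0.762 for Fosb (0.75 to 0.775). Fosb thus stood further below in iCD8a than Fos did, while the pair had near the same ratio between the other libraries.

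Jun (ENSMUSG00000052684), the most strongly activating Jun protein, had 7741 counts in iCD8a, beside 17477 in ILC1 and 15340 in CD11b+. Its levels were 328 CPM in iCD8a, with 794 in ILC1 and 544 in CD11b+. Junb (ENSMUSG00000052837), a weaker activator that can oppose Jun, had 56930 counts in iCD8a, beside 98917 in ILC1 and 69842 in CD11b+. This gave 2409 CPM in iCD8a, as compared with 4495 in ILC1 and 2476 in CD11b+. Jun and Junb both had their highest level in ILC1 and were not called in any pair. Jun was 2.42-fold lower in iCD8a than in ILC1 (2.36 to 2.49) and 1.66-fold lower than in CD11b+ (1.61 to 1.71). Junb was 1.87-fold lower in iCD8a than in ILC1 (1.85 to 1.88) and 1.03-fold lower than in CD11b+ (1.02 to 1.04). The last difference reverses without TMM factors, at 2626 CPM in iCD8a and 2289 CPM in CD11b+. Leaving them out also moved the median log2 ratio of all genes by 0.25 for this pair, and relative to that median Junb stood at −0.12 with TMM and −0.13 without.

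Per kilobase of exon, Junb was the most abundant of the 10 genes in every library, at 1047 CPM per kilobase in iCD8a, 1953 in ILC1 and 1076 in CD11b+. Among 21131 protein-coding genes ranked by level per kilobase it took place 17 in iCD8a, beside 10 in ILC1 and 26 in CD11b+. Nr4a1 took place 993 in iCD8a, beside 34 in ILC1 and 114 in CD11b+, and Nr4a2 took place 390, beside 131 and 413. Junb made up 79.1% of the summed AP-1 level per kilobase in iCD8a, 72.5% in ILC1 and 56.9% in CD11b+. Fosb took 1.78% in iCD8a, beside 5.89% in ILC1 and 11% in CD11b+, and Fos took 11.4% in iCD8a, beside 12.4% in ILC1 and 23.1% in CD11b+. Jun took 7.76% in iCD8a, beside 9.24% in ILC1 and 9.02% in CD11b+. The AP-1 genes together summed to 3239 CPM in iCD8a, with 7065 in ILC1 and 5344 in CD11b+, 2.18-fold lower in iCD8a than in ILC1 (2.16 to 2.2) and 1.65-fold lower than in CD11b+ (1.64 to 1.66). On the log2 scale the summed AP-1 level of iCD8a over CD11b+ was −0.72 in CPM and −0.51 in CPM per kilobase. Within this sum the shares of Fos and of Fosb were thus each smallest in iCD8a and largest in CD11b+. Fosl2, a Fos-type gene outside the set and not in the sum, was at 170 CPM per kilobase in iCD8a, 342 in ILC1 and 110 in CD11b+. Annotated genes overlap members on the opposite strand, Junos with Jun and Prdx2 with Junb. No source used here gives the strand setting of the counting, so how reads in the shared bases were counted is not known.

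The EGR genes encode zinc finger factors that bind GC-rich DNA, and Egr2 and Egr3 are known to limit lymphocyte activation. All 3 followed the order iCD8a, ILC1, CD11b+, low to high. Egr1 (ENSMUSG00000038418) had 762 counts in iCD8a, beside 2188 in ILC1 and 5631 in CD11b+, that is 32.2 CPM in iCD8a, beside 99.4 in ILC1 and 199.6 in CD11b+. It was 3.08-fold lower in iCD8a than in ILC1 (2.84 to 3.35), which was not called, and 6.19-fold lower than in CD11b+ (5.74 to 6.69). ILC1 lay 2.01-fold below CD11b+ (1.91 to 2.11).

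Egr2 (ENSMUSG00000037868) had 27 counts in iCD8a, beside 263 in ILC1 and 597 in CD11b+. Its levels were 1.14 CPM in iCD8a (0.753 to 1.66), 12 CPM in ILC1 (10.5 to 13.5) and 21.2 CPM in CD11b+ (19.5 to 22.9). It was 10.5-fold lower in iCD8a than in ILC1 (7.03 to 16.2) and 18.5-fold lower than in CD11b+ (12.6 to 28.3). The call against ILC1 was lost with a level minimum of 20 CPM. Egr3 (ENSMUSG00000033730) had 29 counts in iCD8a, beside 97 in ILC1 and 807 in CD11b+, or 1.23 CPM (0.822 to 1.76), 4.41 CPM (3.57 to 5.38) and 28.6 CPM (26.7 to 30.6) in these libraries. Egr2 and Egr3 were near 1 CPM in iCD8a, so their folds have the widest intervals of the set. Egr3 was 23.3-fold lower in iCD8a than in CD11b+ (16.1 to 35) and 6.49-fold lower in ILC1 than in CD11b+ (5.25 to 8.1). Between iCD8a and ILC1 it stayed under the level minimum of 5 CPM in both libraries, with a fold of 3.59 (2.35 to 5.64).

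The summed EGR level was 34.6 CPM in iCD8a, with 116 in ILC1 and 249 in CD11b+. Per kilobase, Egr1 made up 92.1% of the family in iCD8a, 83.1% in ILC1 and 77.8% in CD11b+. Egr2 made up 4.31% in iCD8a, beside 13.2% in ILC1 and 10.9% in CD11b+. At 7.19 CPM per kilobase in iCD8a, 22.2 in ILC1 and 44.5 in CD11b+, Egr1 stood far below Junb in every library. The macrophage and monocyte markers summed over 11 genes to 393 CPM in iCD8a, as compared with 565 in ILC1 and 8494 in CD11b+. Itgam, which encodes CD11b, made up most of the iCD8a sum, at 362 CPM in iCD8a, beside 187 in ILC1 and 845 in CD11b+. Of the 9 with 5 CPM or more in iCD8a or ILC1, 7 were called lower in iCD8a, beside 4.89% of all genes, and Itgam and Cd68 had ratios above 1. Against CD11b+, 10 of 11 were called lower in iCD8a, beside 13.4% of all genes, and Itgam was not called. Lyz2, a lysozyme of phagocytes, was at 6.52 CPM in iCD8a, beside 252 in ILC1 and 4844 in CD11b+, and Cd68, a lysosomal protein of phagocytes, at 19.5, 7.68 and 287 CPM. None of the 11 was at 0 in any library. Their part in the EGR result was not tested.

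**Figure D4:**
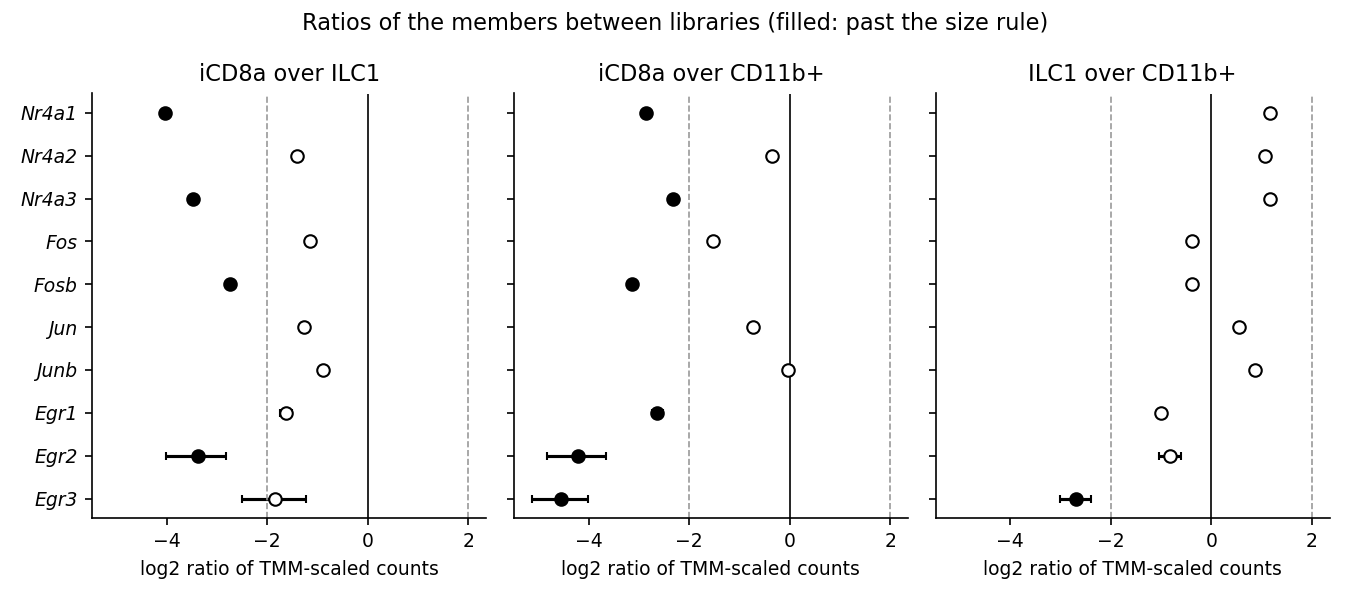
Log2 ratio of TMM-scaled counts for each gene in the 3 pairs of libraries, with 95% exact counting intervals, most of them narrower than the symbol. Filled points passed the size rule and dashed lines mark a fold of 4; all points lie below a ratio of 1 for both iCD8a pairs (for Junb against CD11b+ only with TMM factors), and on both sides for ILC1 over CD11b+.

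Of 15 other AP-1 and related basic leucine zipper genes, 12 had 5 CPM or more in iCD8a or ILC1, and all 12 had a ratio of iCD8a to ILC1 below 1 under each of the 4 scalings. Of these, 4 were called lower in iCD8a and 0 higher, beside 4.89% and 3.52% of all genes. Against CD11b+, 12 of 15 had a ratio below 1 (10 without TMM factors), and 6 were called lower in iCD8a and 0 higher, beside 13.4% and 6.13% of all genes. The same shares of all genes apply to the counts of the lists that follow. Atf3, a stress-induced repressor, was at 18.5 CPM in iCD8a, with 174 in ILC1 and 540.4 in CD11b+, 9.43-fold below ILC1 (8.54 to 10.4) and 29.2-fold below CD11b+ (26.6 to 32.2). Maff, a small Maf protein, was at 47.7 CPM in iCD8a, as compared with 360.5 in ILC1 and 125 in CD11b+. Batf3, a dendritic cell factor, was 24.9-fold lower in iCD8a than in CD11b+ (18.3 to 34.9). Batf3 was also 28-fold lower in ILC1 than in CD11b+ (19.9 to 40.6). The genes with the highest CPM that were called in no pair were Fosl2, Jund and Crem. Fosl2, a Fos-type partner of Jun proteins, was at 1648 CPM in iCD8a, beside 3311 in ILC1 and 1067 in CD11b+, so unlike Fos and Fosb it was lowest in CD11b+. Jund was at 558 CPM in iCD8a, with 976 in ILC1 and 571 in CD11b+.

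Of 6 relatives and partners of the EGR and NR4A proteins, 0 were called between iCD8a and ILC1. Nab1, a co-repressor that binds EGR proteins, was at 164 CPM in iCD8a, as compared with 397 in ILC1 and 164 in CD11b+. Nab2, which is itself induced by EGR proteins, was at 16.2 CPM in iCD8a, beside 24.4 in ILC1 and 18.9 in CD11b+. Rxra, a retinoid receptor that pairs with Nr4a1 and Nr4a2, was 6.36-fold lower in iCD8a than in CD11b+ (5.56 to 7.32), the only call in this list. Egr4, the fourth EGR gene, had no library at 1 CPM.

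Among 41 other immediate early genes, 18 were called lower in iCD8a than in ILC1 and 1 higher, with a median log2 ratio of −1.84 over the 39 with at least 5 CPM. Nfkbiz, an inducible NF-κB cofactor, was 28.1-fold lower in iCD8a than in ILC1 (26.6 to 29.7) and Myc 20.9-fold (18.6 to 23.5). The stress gene Gadd45b was 16.3-fold lower (15.4 to 17.2) and the cytokine feedback inhibitor Socs3 15.9-fold (14.8 to 17.1). Nfkbiz, Gadd45b and Socs3 were also called lower in iCD8a than in CD11b+. Myc was not called in that pair, at 13 CPM in iCD8a, with 273 in ILC1 and 17.7 in CD11b+. It was 15.4-fold higher in ILC1 than in CD11b+ (14.1 to 17). The exception was Trib1, a pseudokinase, at 159 CPM in iCD8a, with 24.1 in ILC1 and 273 in CD11b+. Trib1 was lowest in ILC1, 11.3-fold below CD11b+ (10.4 to 12.4), and was not called between iCD8a and CD11b+. Against CD11b+, 16 of the 41 were lower in iCD8a and 1, Ier5l, was higher. Ier5l was also 4.57-fold higher in ILC1 than in CD11b+ (4.29 to 4.86). Ptgs2, which encodes cyclooxygenase 2, was 549.7-fold lower in iCD8a than in CD11b+ (420.1 to 734) and Ier3 177-fold (85.5 to 440.1). Both were also called lower in ILC1 than in CD11b+, Ptgs2 74.1-fold (66.9 to 82.4) and Ier3 8.11-fold (6.82 to 9.7). Not every gene of the class was low in iCD8a. Rgs1, which shortens chemokine receptor signals, was at 6055 CPM in iCD8a, with 4548 in ILC1 and 2435 in CD11b+. Zfp36l2, which speeds messenger RNA decay, was at 1319 CPM in iCD8a, as compared with 1655 in ILC1 and 699 in CD11b+.

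Negative regulators of the MAP kinases that induce these genes were split. Of 13 listed, 11 had 5 CPM or more in iCD8a or ILC1, and 4 of these were called lower in iCD8a and 0 higher. Dusp2, a nuclear phosphatase of MAP kinases, was at 8.84 CPM in iCD8a, beside 854 in ILC1 and 181 in CD11b+, which put iCD8a 96.5-fold below ILC1 (84.2 to 111). Dusp4 was 28.3-fold (21.9 to 37.3) and Spry2, an inhibitor of receptor tyrosine kinase signals, 19.1-fold (17.6 to 20.6) lower in iCD8a than in ILC1. Dusp4 was at 2.54 CPM in iCD8a, with 71.8 in ILC1 and 7.51 in CD11b+. Spry2 was at 27.8 CPM in iCD8a, with 529 in ILC1 and 7.48 in CD11b+. For Spry2, iCD8a lay 3.71-fold above CD11b+ (3.17 to 4.36), which was not called, and ILC1 70.7-fold above CD11b+ (61.7 to 81.4). Against CD11b+, 3 were called lower in iCD8a and 1 higher. Without TMM factors these counts were 1 lower and 2 higher. The gene called higher was Dusp10, a phosphatase of stress kinases, 6.42-fold above CD11b+ (5.83 to 7.07). In ILC1 Dusp10 lay 3.81-fold above CD11b+ (3.44 to 4.22), which was not called. Dusp5 and Dusp1 were called in no pair, Dusp5 at 589 CPM in iCD8a, with 1383 in ILC1 and 561 in CD11b+, and Dusp1 at 243, 606 and 754 CPM in the same libraries.

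Upstream of these genes lie SRF, a constitutive factor, and the MAP kinases that activate its partners. Of 16 genes for SRF, its partners and MAP kinases, 0 were called in any of the 3 pairs (1 lower in iCD8a than in ILC1 with DESeq2 or upper-quartile factors), and their medians were −0.24 for iCD8a over ILC1 and 0.06 for iCD8a over CD11b+ on the log2 scale. Srf itself was at 59.2 CPM in iCD8a, as compared with 73.8 in ILC1 and 128 in CD11b+. The rule asks for a fold of 4, so smaller differences would not be called. Of 12 calcineurin and NFAT genes, 0 were called between iCD8a and ILC1, and Camk4, a calcium-dependent kinase of lymphocytes, was 13.7-fold higher in iCD8a than in CD11b+ (10.6 to 18.1). Camk4 was also 12-fold higher in ILC1 than in CD11b+ (9.19 to 15.8). Nfatc1 was at 305 CPM in iCD8a, beside 508 in ILC1 and 184 in CD11b+.

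Genes known to lie downstream of NR4A or EGR proteins in lymphocytes numbered 16 on the list, of which 13 had 5 CPM or more in each pair. In iCD8a over ILC1, 1 of the 13 was called lower and 1 higher, close to the 4.89% and 3.52% of all genes, and the median was −0.44 on the log2 scale. With no level minimum the counts were 2 lower and 2 higher. Lag3, an inhibitory receptor, was at 705 CPM in iCD8a and 148 CPM in ILC1, a 4.77-fold difference (4.59 to 4.95). Cdkn1a, which encodes the cell cycle inhibitor p21, was at 13.8 CPM in iCD8a and 173 CPM in ILC1. Against CD11b+, 6 of 13 were called higher in iCD8a, beside 6.13% of all genes, and 2 lower, close to the 13.4% of all genes. The costimulatory receptor Tnfrsf9 was 18.3-fold higher (16.7 to 20.1), the death ligand Fasl 11.4-fold (10.4 to 12.4) and Tox, a nuclear factor of exhausted and developing T cells, 11.1-fold (9.85 to 12.4). Irf4 was 6.06-fold lower in iCD8a than in CD11b+ (5.7 to 6.45). ILC1 over CD11b+ had the same direction, with 8 of 13 called higher and 1 lower, beside 6.01% and 13% of all genes. The median log2 ratio was 2.43 for that pair and 1.68 for iCD8a over CD11b+. Tnfrsf9 was 10.3-fold, Fasl 11.6-fold and Tox 5.4-fold higher in ILC1 than in CD11b+, and Irf4 was 9.88-fold lower.

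Heat shock genes, which cell handling can induce, were highest in ILC1 for 14 of 15 listed, the exception being Bag3. Of the 15, 2 were called lower in iCD8a than in ILC1 (1 with a minimum of 20 CPM) and 0 higher, and the ratio lay below 1 for all 15 under each of the 4 scalings. Their median log2 ratio was −1.27 for iCD8a over ILC1, −0.15 for iCD8a over CD11b+ (6 of 14 above 1, and 9 of 14 without TMM factors) and 1.16 for ILC1 over CD11b+. The list summed to 5208 CPM in iCD8a, with 12179 in ILC1 and 5720 in CD11b+. Bag3, a co-chaperone, was at 4.44 CPM in iCD8a, with 30.8 in ILC1 and 33.1 in CD11b+, 6.92-fold lower in iCD8a than in ILC1 (5.63 to 8.59). Hsph1, another co-chaperone, was at 339 CPM in iCD8a, with 1236 in ILC1 and 199 in CD11b+, and Hspa8, a constitutive chaperone called in no pair, was at 566 CPM in iCD8a and 1498 CPM in ILC1. The part of cell handling in the levels of the 10 genes was not tested.

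**Figure D5:**
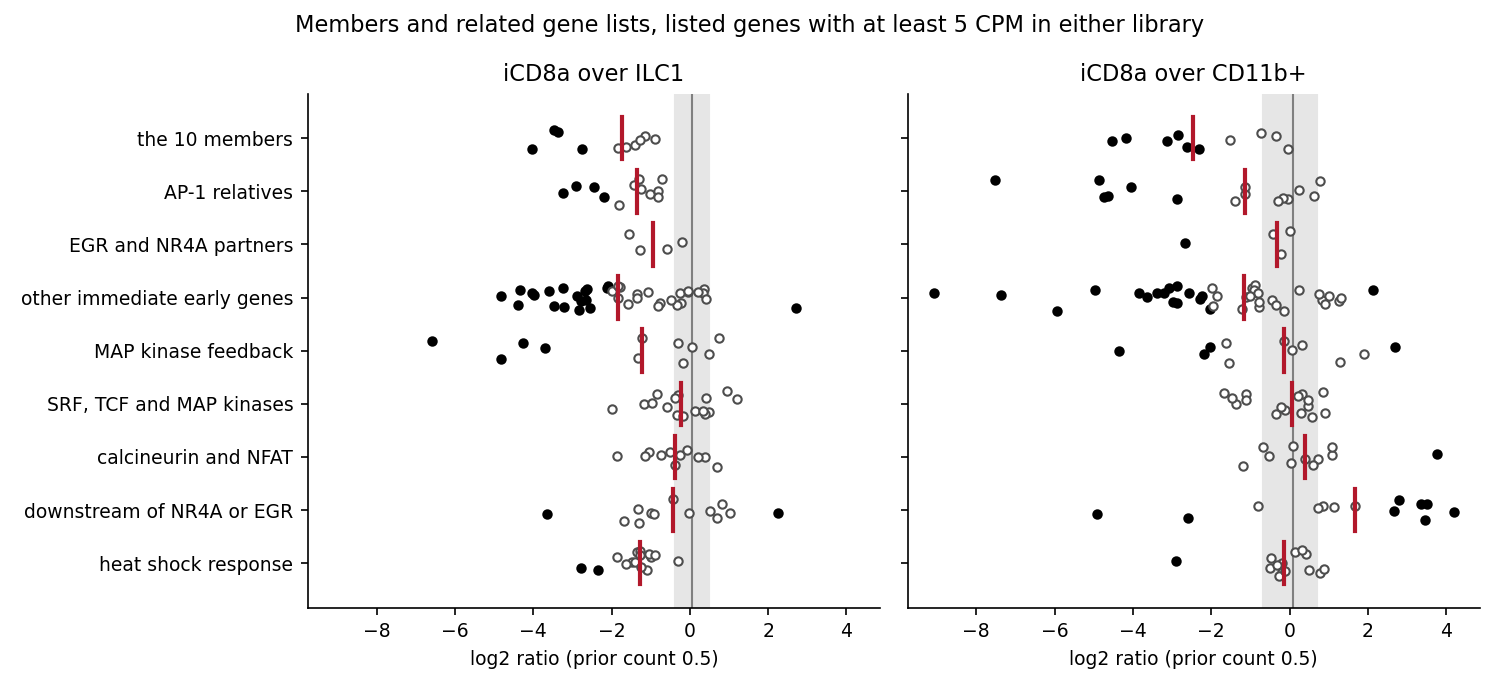
Log2 ratio of each gene in the 10-gene set and in 8 related lists, for iCD8a over ILC1 and iCD8a over CD11b+, 1 point per gene, with filled points past the size rule, bars at the medians, and a grey line and band for the median and quartiles of all genes compared. The list medians lie between −1.84 and −0.24 in the first panel, and in the second the downstream list lies at 1.68. For ILC1 over CD11b+, which is not drawn, the median of the downstream list was 2.43.

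Over the 3 libraries the 10 genes had different profiles. Likeness was taken as the distance between log2 levels centred on each gene's own mean, which rests on 3 points per gene. Before the logarithm 0.5 CPM was added to each level, which shrinks differences for genes with low levels. Among the members Egr2 and Egr3, at 1.14 and 1.23 CPM in iCD8a, are affected most. Distances without the addition are not given. Nr4a1 and Nr4a3 were each other's nearest member, at a distance of 0.45. Fosb and Egr2 were likewise nearest to each other at 0.42, and Nr4a2 and Junb at 0.36. The member nearest to Jun was Nr4a2 at 0.38, to Fos it was Jun at 0.71, to Egr1 it was Fos at 0.77, and to Egr3 it was Egr1 at 1.24. Of 7979 other protein-coding genes that reached 20 CPM somewhere, 19 lay within 0.5 of Nr4a1. Among the nearest were Gadd45b at 0.03, Areg at 0.09, Kdm6b at 0.18 and Il22 at 0.20. Gadd45b was at 57.5 CPM in iCD8a, as compared with 937 in ILC1 and 425 in CD11b+. Kdm6b, a histone demethylase, was at 143 CPM in iCD8a, beside 1952 in ILC1 and 936 in CD11b+.

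Technical measures also differed between the libraries. Genes of the mitochondrial genome held 1.6% of the counts in iCD8a, 2.09% in ILC1 and 9.53% in CD11b+. Intestinal epithelial markers summed to 533 CPM in iCD8a, as compared with 221 in ILC1 and 1712 in CD11b+ over 16 genes. Of these, 14 were called lower in iCD8a than in CD11b+, beside 13.4% of all genes. Between ILC1 and CD11b+, 15 were called lower in ILC1, beside 13% of all genes. Against ILC1, 2 were called higher in iCD8a, beside 3.52% of all genes. Plasmacytoid dendritic cell markers summed to 647 CPM in iCD8a, beside 88.6 in ILC1 and 150 in CD11b+ over 5 genes. Members took 0.446% of gene counts in iCD8a, 1.38% in ILC1 and 0.797% in CD11b+. Whether these marker differences bear on the 10 genes was not tested.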

How the data were processed

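RNA-seq libraries from 3 sorted populations, 1 each, were grouped by the cell type label. According to the design text, the authors aligned HiSeq reads with TopHat and counted them with HTSeq, and the submitters' processing notes name CASAVA 1.9 and TopHat2. No source used here gives the genome build, annotation, strand setting or counter version. The deposited values are raw counts, 1 per Ensembl ID. The 5 rows that name no gene stayed out of library sizes. Their share of all counts was 37.3% for iCD8a, with 46.4% in ILC1 and 40.0% in CD11b+. HTSeq leaves out reads that align to several places.

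Symbols and exon lengths came from GENCODE M21 by Ensembl ID, with 35449 of 37224 IDs matched. TMM factors (edgeR 4.0.16, R 4.3.3) were 1.09 in iCD8a, with 0.992 in ILC1 and 0.925 in CD11b+. Fold intervals are exact conditional binomial (Clopper-Pearson) and level intervals exact Poisson (scipy 1.17.1), both at 95%. They cover counting error only, since no molecular identifiers separate PCR copies. Since each group is a single library, no test was run: edgeR and DESeq2 1.42.0 served for scaling only. Log2 ratios used a prior count of 0.5. The interval and the size rule were tried on simulated Poisson counts, which hold counting error only and no variation between animals or libraries. All 10 members were named, and of each list the called genes with the largest near bound (up to 4 per pair and direction) and up to 3 uncalled genes with the highest CPM, of which a selection is printed. Srf, Lyz2, Itgam, Cd68 and Egr4 were named outside that rule, after their values were seen. Members and lists were chosen with earlier results of these data known. Alternatives covered 3 other scalings, gene removals, thinning, level minimums, folds and the prior count. FPKM values were not used here. Some genes that the naming rule selects are not reported here.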

Additional observations from a re-analysis of the deposited data

Results flagged for a closer look

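Part of each library was counted in rows without a gene, outside the comparisons. Their share of all counts was 37.3% for iCD8a, with 46.4% in ILC1 and 40.0053% in CD11b+. Genes that overlap a member on the opposite strand were also counted. Junos, the antisense gene that shares 689 bases with Jun, had 34 counts in iCD8a, 25 in ILC1 and 30 in CD11b+, against 7741, 17477 and 15340 for Jun. Prdx2, a peroxiredoxin gene that shares 351 bases with Junb, had 2040 counts in iCD8a, 1192 in ILC1 and 2646 in CD11b+, against 56930, 98917 and 69842 for Junb.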

How the results depend on the processing

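No paired analysis was possible because each population has 1 library, and for the same reason leaving out a replicate was not run. The numbers of members called stayed within 1.5 times those reported under the other scalings, gene removals, thinning and level minimums. A fold of 2 with the near interval bound above 1 gave 8 members lower in iCD8a than in ILC1 (beside 10.8% of genes). For ILC1 set against CD11b+ it gave 3 higher (17%) with 2 lower (21%). A fold of 8 with that bound at 4 gave 3 lower in iCD8a than in CD11b+ (9.5%) and 0 lower in ILC1 than in CD11b+ (8.79%). A minimum of 20 CPM ended the call of Egr2 between iCD8a and ILC1. Leaving out TMM gave members' medians (log2) of −2.23 in the pair iCD8a over CD11b+ and 0.18 in ILC1 over CD11b+, and with upper-quartile factors ILC1 over CD11b+ stood at 0.17. Leaving out TMM moved the median of all genes by 0.14 in iCD8a over ILC1, 0.25 against CD11b+, and 0.11 between ILC1 and CD11b+. Of 240 recomputed member ratios, 43 fell outside the counting interval of the reported ratio, with a largest shift of 0.24 on the log2 scale. The counting intervals therefore do not cover the choice of scaling. Only 1 ratio changed sign, Junb in iCD8a over CD11b+. Of 576 recomputed list counts, 53 moved by over 1.5 times, 44 of them under a fold of 2 or 8 and 9 under other settings; the largest shift was 10 genes, for heat shock genes lower in iCD8a than in ILC1 (12 with a fold of 2, beside 2). Of 9 family sums, the 3 of AP-1 moved when taken per kilobase. At 27 and 29 counts, Egr2 and Egr3 in iCD8a limit their folds most.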
